A study of Homo sapiens with 36 samples.

Results

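RNA polymerase II (pol II) and Med1, a subunit of the Mediator complex, were mapped by chromatin immunoprecipitation and sequencing (ChIP-seq) in A549 cells, a human lung adenocarcinoma line. The peaks described here are all those of the A549 pol II and Med1 lists on chromosomes 1 to 12, outside 1-Mb bins that hold no annotated start site. They number 47134 of the 476964 peaks in the 16 lists of the series, with 32576 for pol II and 14558 for Med1. The study compared A549 with B2B (BEAS-2B), an immortalised and non-cancerous bronchial epithelial line, and no genotype or treatment was set in either. A549 is a single established line, so it stands for lung cancer cells only as far as 1 line can. Pol II was precipitated with the antibody 8WG16, and 2 replicates of each target were merged by the authors before peaks were called. Every value below therefore comes from 1 pooled list per target and has no replicate error, and the 95% intervals given cover counting error only. Reads behind a list were not counted in the files used here. Solved from the deposited values, the median pileup at a summit was 23 reads for pol II and 21 reads for Med1.

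Mediator is a large complex that bridges sequence-specific transcription factors and pol II. It joins the preinitiation complex at promoters and is also recruited to enhancers, where Med1 is widely used as a mark. Pol II gathers just downstream of start sites before it is released into the gene, and the antibody 8WG16 prefers a repeat domain of pol II that carries little phosphate, as found near promoters. AP-1 is a dimeric transcription factor that holds a Jun-family protein (JunB, Jun or JunD) and binds the motif TGANTCA at many enhancers.

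The lists were read against markers of cell identity. All 4 measured epithelial markers (KRT8, KRT18, KRT7 and EPCAM) had both pol II and Med1 at a start site, with pol II fold enrichments between 24.6 for EPCAM and 96.6 for KRT8. Fold enrichment is the height of a peak over the local background of the caller. Of 5 markers of alveolar type II cells, none had both and LAMP3 alone had pol II, at 4.77, while SFTPB, SFTPC, SFTPA1 and SLC34A2 had neither. None of the haematopoietic (4 genes), fibroblast (4 genes) and endothelial (2 genes) markers had either protein, but both neural markers, SYT1 and NEFL, had both, at pol II fold enrichments of 52.5 and 23.9.

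The sequences shown next are those of strong promoters and distal sites with both proteins or with only one of them, so that joint and single sites can be compared by eye. They come from the reference genome, are written 5′ to 3′ in lower case, and carry capitals only where the AP-1 motif TGANTCA was found. The first pair are RefSeq promoters of genes with both proteins (GRCh38.p14), at chr6:73520983-73521282 on the minus strand for EEF1A1, a translation elongation factor, and at chr10:32958181-32958480 on the minus strand for ITGB1, the integrin β1 subunit. The next pair are RefSeq promoters of genes with a strong pol II peak and no Med1 peak, at chr6:33711651-33711950 on the minus strand for UQCC2, an assembly factor of mitochondrial complex III, and at chr1:19882145-19882444 on the plus strand for OTUD3, a deubiquitinase.
EEF1A1: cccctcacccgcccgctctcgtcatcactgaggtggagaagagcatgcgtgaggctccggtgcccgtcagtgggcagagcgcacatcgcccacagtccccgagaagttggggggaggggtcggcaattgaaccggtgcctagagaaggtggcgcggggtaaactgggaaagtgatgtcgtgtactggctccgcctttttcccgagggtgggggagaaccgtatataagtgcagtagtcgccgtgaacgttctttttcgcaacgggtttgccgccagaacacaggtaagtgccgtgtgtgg
ITGB1: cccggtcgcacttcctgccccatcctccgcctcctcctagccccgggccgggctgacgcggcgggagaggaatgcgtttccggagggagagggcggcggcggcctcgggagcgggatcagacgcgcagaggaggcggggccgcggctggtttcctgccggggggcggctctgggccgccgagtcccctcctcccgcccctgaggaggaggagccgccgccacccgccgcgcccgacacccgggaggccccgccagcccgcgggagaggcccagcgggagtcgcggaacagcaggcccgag
UQCC2: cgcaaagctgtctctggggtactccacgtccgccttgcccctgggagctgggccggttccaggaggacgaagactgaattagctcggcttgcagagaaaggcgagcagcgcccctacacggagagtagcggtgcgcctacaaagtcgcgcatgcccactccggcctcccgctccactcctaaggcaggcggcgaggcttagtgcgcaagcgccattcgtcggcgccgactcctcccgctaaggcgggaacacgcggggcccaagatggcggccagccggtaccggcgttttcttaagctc
OTUD3: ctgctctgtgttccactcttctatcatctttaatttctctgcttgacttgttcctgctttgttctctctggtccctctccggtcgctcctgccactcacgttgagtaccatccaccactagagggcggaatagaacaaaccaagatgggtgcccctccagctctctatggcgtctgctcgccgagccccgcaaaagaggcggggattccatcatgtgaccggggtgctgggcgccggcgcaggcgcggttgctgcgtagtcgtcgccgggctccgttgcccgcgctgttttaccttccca
None of these 4 promoters held TGANTCA or TATAAA, the exact letters searched for a TATA box. EEF1A1 held tatataag, a near variant that the exact search did not count. Their GC content was 60.7% for EEF1A1, 78.3% for ITGB1, 65.7% for UQCC2 and 59.0% for OTUD3, and they held 24, 39, 31 and 22 CpG dinucleotides in that order. The GC box GGGCGG was present in EEF1A1, ITGB1 and OTUD3 and not in UQCC2, which alone held the NRF1-type core GCATGCGC.

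The next sequences are 200 bp of hg38, plus strand, centred on the summit of the peak. The joint sites are chr3:4986887-4987086, 7.55 kb from the start of the transcription factor gene BHLHE40, and chr1:236097146-236097345, 32.1 kb from the start of NID1, a basement membrane protein. The site with Med1 alone is chr9:120735430-120735629, 21.1 kb from MEGF9. The site with pol II alone is chr3:13451674-13451873, 27.95 kb from HDAC11.
BHLHE40 joint: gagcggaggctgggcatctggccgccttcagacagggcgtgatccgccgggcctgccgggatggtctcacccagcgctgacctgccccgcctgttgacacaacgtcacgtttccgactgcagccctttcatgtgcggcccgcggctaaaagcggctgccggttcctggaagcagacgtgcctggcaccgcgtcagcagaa
NID1 joint: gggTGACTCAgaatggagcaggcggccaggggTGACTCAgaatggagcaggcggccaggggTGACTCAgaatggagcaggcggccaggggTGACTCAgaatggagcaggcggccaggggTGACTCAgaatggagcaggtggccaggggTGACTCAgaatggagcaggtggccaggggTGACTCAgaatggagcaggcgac
MEGF9 Med1 only: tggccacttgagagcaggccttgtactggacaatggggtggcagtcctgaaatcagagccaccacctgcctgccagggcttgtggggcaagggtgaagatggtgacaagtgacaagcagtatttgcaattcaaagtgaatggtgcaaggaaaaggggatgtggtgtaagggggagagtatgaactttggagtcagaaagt
HDAC11 pol II only: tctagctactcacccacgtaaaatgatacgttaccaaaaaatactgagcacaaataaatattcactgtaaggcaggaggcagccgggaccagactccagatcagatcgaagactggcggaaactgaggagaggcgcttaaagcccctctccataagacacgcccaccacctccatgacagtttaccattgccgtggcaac
The NID1 site was a tandem repeat that held TGANTCA 7 times, and the other 3 windows did not hold it.

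In the full lists pol II and Med1 met mostly at start sites. Nearly every Med1 peak there lay on pol II, but only about as many pol II peaks had Med1 as lacked it. A peak was placed at a start site if it lay within 1 kb of an annotated transcript start, otherwise in a gene body if its summit fell inside a gene, and otherwise called distal. It was joint if it overlapped a peak of the other list by at least 1 bp, and single if not. Start sites held 14274 pol II peaks (43.8% of the list) and 9168 Med1 peaks (63.0%). Gene bodies held 13855 pol II peaks (42.5%) but 3157 Med1 peaks (21.7%), and distal sites held 4447 (13.7%) and 2233 (15.3%).

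At start sites 50.5% of pol II peaks had Med1 (95% interval 49.7 to 51.4), against 14.5% in gene bodies (13.9 to 15.1) and 31.3% at distal sites (29.9 to 32.6). In the other direction 97.6% of Med1 peaks at start sites had pol II (97.3 to 97.9), 80.5% in gene bodies (79.0 to 81.8) and 69.9% at distal sites (67.9 to 71.7). The order of the 3 classes differed between the directions, and no interval overlapped another in either. The shares depended on which peaks were kept, at start sites as well as away from them. With the pol II list cut to the 14558 peaks with the highest −log10 p, the length of the Med1 list, Med1 was at 73.5% of start-site, 47.7% of gene-body and 58.4% of distal pol II peaks. With bins without a start site kept, 37.6% of distal Med1 peaks had pol II. Over the 12 chromosomes the start-site share of pol II peaks with Med1 ran from 45.2% on chromosome 11 to 56.2% on chromosome 10. The share of distal Med1 peaks with pol II varied more, from 52.3% on chromosome 4 to 84.3% on chromosome 11.

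In the full B2B lists more pol II peaks had Med1 and fewer Med1 peaks had pol II. There 78.2% of start-site pol II peaks had Med1, which put A549 27.7 points lower (interval of the difference −28.9 to −26.5). Of start-site Med1 peaks in B2B 62.8% had pol II, which put A549 34.8 points higher (33.9 to 35.8). Gene bodies and distal sites differed in the same directions, by −16.1 and −13.9 points for pol II peaks and by 39.8 and 33.0 points for Med1 peaks. The lengths of the lists differed as well. The pol II list held 16521 peaks in B2B against 32576 in A549, while the Med1 lists held 17420 and 14558. At start sites the median local background of the B2B pol II list, solved from the deposited values, was 14.9 times the lowest percentile of its backgrounds. In A549 it was 1.43 times. Away from start sites the ratios were 1.35 in B2B and 1.39 in A549. The pol II differences changed when the A549 list was shortened. With the A549 pol II list cut as above, its shares of 73.5%, 47.7% and 58.4% stood beside 78.2%, 30.6% and 45.2% in B2B, so that A549 was the lower at start sites only and the higher in gene bodies and at distal sites. After the same cut, Med1 peaks had pol II at 95.7%, 66.2% and 54.9% in A549, still above the 62.8%, 40.7% and 36.8% in B2B. The cut left 14558 A549 pol II peaks, fewer than the 16521 of the uncut B2B list, so the lengths were not matched. The parts of list length and of the local background in these differences were not tested.

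**Figure D1:**
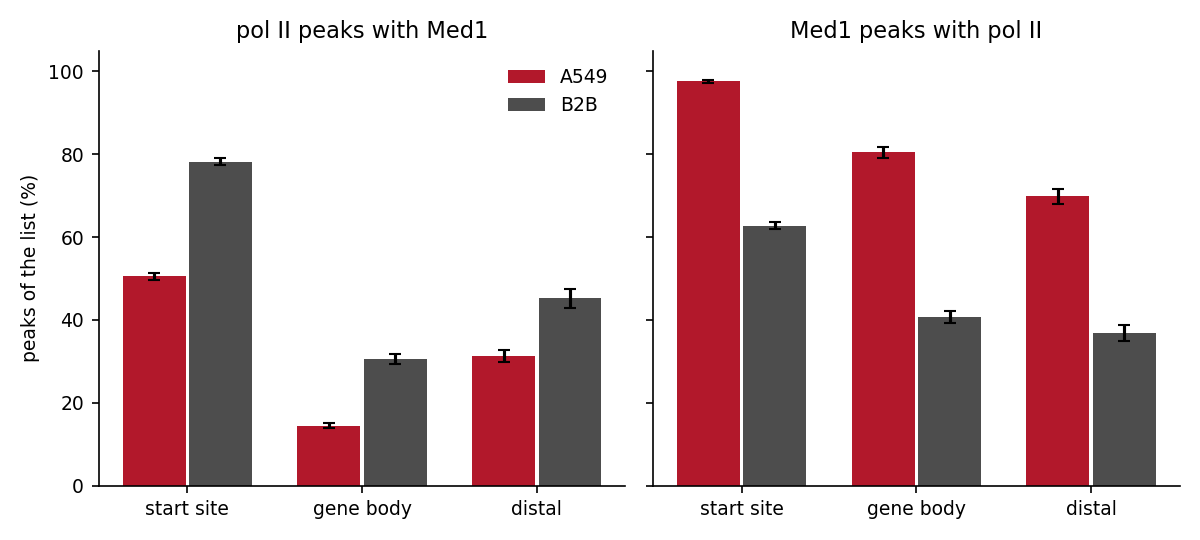
Share of peaks (%) that overlapped a peak of the other list by place, for pol II peaks with Med1 (left) and Med1 peaks with pol II (right), in A549 (red) and B2B (grey). Bars are single pooled lists and error bars are Wilson 95% intervals. In A549 97.6% of start-site Med1 peaks had pol II, while 50.5% of start-site pol II peaks had Med1.

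Pol II peaks with Med1 were the stronger and wider ones. At start sites the median fold enrichment of pol II was 49.4 at joint peaks (quartiles 30.5 and 70.7) and 6.03 at single peaks (4.67 and 10.4), and the median widths were 1222 and 355 bp. Among deciles of the start-site pol II peaks by fold enrichment, the share with Med1 was 1.89% in the weakest, 34.3% in the fifth, 86.6% in the seventh and 99.9% in the strongest, where 1 of 1428 peaks lacked Med1. In gene bodies the share stayed below 5% through the sixth decile and reached 73.3% in the strongest. At distal sites it ran from 8.31% to 89.4%. In the other direction the share varied less at start sites, where 95.4% of the weakest decile of Med1 peaks and 99.9% of the strongest had pol II. At distal sites that share was 59.4% in the weakest decile, 51.3% in the fifth and 98.7% in the strongest.

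**Figure D2:**
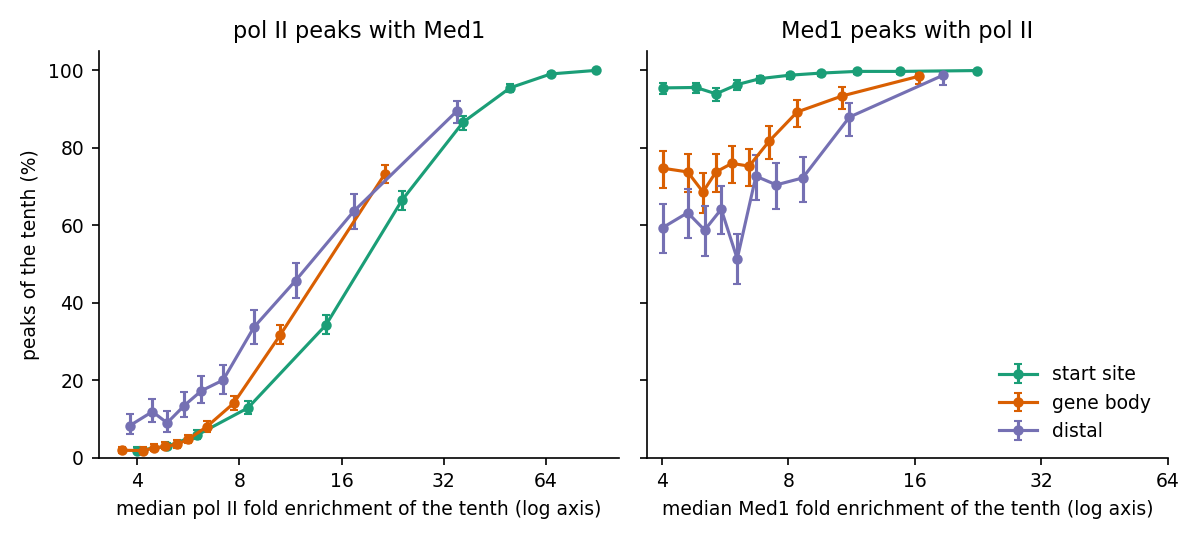
Share of peaks (%) with the other protein in each decile of the list by fold enrichment, for pol II peaks (left) and Med1 peaks (right) at start sites, in gene bodies and at distal sites, against the median fold enrichment of the decile on a log axis. Error bars are Wilson 95% intervals. Start-site pol II peaks went from 1.89% to 99.9% with Med1, whereas start-site Med1 peaks never fell below 93.9% with pol II.

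Many single pol II peaks at start sites lay beside a stronger pol II peak. Of the 7061 single peaks, 43.7% (42.5 to 44.8) had a stronger pol II peak within 1 kb and 16.9% had a Med1 peak within 1 kb without touching it. The first share was not computed for joint peaks. Single peaks were also the weaker ones, so it cannot be read as particular to peaks without Med1. When peaks closer than 1 kb were joined first, 64.6% of start-site pol II regions had Med1. Single peaks also lay farther from the start, at a median of 282 bp from the summit against 33 bp for joint peaks. The marks of active promoters were less frequent at them. H3K27ac, the acetylation found at active promoters and enhancers, lay within 250 bp of the summit at 96.3% of joint and 51.2% of single peaks. H3K4me3, the methylation of active promoters, did so at 96.0% and 55.9%.

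Away from start sites, pol II without Med1 lay in part behind genes. Of the 3057 single distal pol II peaks, 44.7% lay within 10 kb past the end of a protein-coding gene, against 12.8% of the 1390 joint ones. Only 11.5% of distal pol II peaks behind genes had Med1 (10.0 to 13.2), compared with 41.8% of the other distal pol II peaks (40.0 to 43.6). Peaks behind genes also had fewer Jun-family peaks (16.7% against 59.7%) and less H3K27ac (24.5% against 47.3%). In gene bodies, Med1 was at 37.9% of pol II peaks with H3K27ac and at 7.56% of those without.

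The Jun family was much more frequent where both proteins met than where pol II stood alone. A Jun-family peak was counted if it came within 250 bp of the summit, so that wide peaks were not favoured. At start sites 56.6% of joint pol II peaks had JunB, Jun or JunD, against 10.8% of single ones, a difference of 45.8 points (44.4 to 47.1). In gene bodies the shares were 77.9% and 18.2%, 59.7 points apart (57.7 to 61.6), and at distal sites 76.0% and 30.6%, 45.4 points apart (42.5 to 48.1). All 3 family members followed this order in each place. At start sites Jun was at 45.1% of joint and 9.22% of single peaks, JunB at 39.8% and 7.53%, and JunD at 25.1% and 1.39%. Peaks with all 3 proteins made up 17.6% of joint and 1.20% of single start-site peaks, and 37.9% and 3.44% in gene bodies.

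Because joint peaks were also the stronger ones, joint and single pol II peaks were compared within quintiles of pol II fold enrichment. The joint share was higher in 5 of 5 quintiles in all 3 places, with intervals above 0 throughout. At start sites the differences ran from 22.8 to 58.7 points, in gene bodies from 38.3 to 57.5 and at distal sites from 30.2 to 63.5. The smallest at start sites, 22.8, was in the third quintile, where both kinds were frequent (1438 joint and 1416 single peaks). The largest, 58.7 (34.1 to 68.5), was in the strongest quintile and rested on 15 single peaks. In the weakest quintile of start-site pol II peaks, for example, 55.1% of 69 joint peaks and 5.78% of 2786 single peaks had a Jun-family peak.

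Med1 peaks with and without pol II differed less. At distal sites 73.5% of joint and 43.2% of single Med1 peaks had a Jun-family peak, a difference of 30.3 points (25.9 to 34.6). In gene bodies the shares were 71.8% and 45.2%, 26.6 points apart (22.2 to 30.8). Within quintiles of Med1 fold enrichment, joint peaks were higher in 5 of 5 in both places. The 219 single Med1 peaks at start sites were 13.4 points below the joint ones (6.73 to 19.6), but within quintiles the joint share was higher in only 2 of 5, and none of those intervals lay above 0.

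The family members present differed between joint and single distal Med1 peaks. JunB without Jun or JunD was at 21.99% of single distal Med1 peaks (19.0 to 25.3) and at 9.68% of joint ones (8.31 to 11.2). Jun was at 16.5% of single and 60.7% of joint peaks. Of distal Med1 peaks, 26.7% lay within 1 Mb of a chromosome end or assembly gap, against 9.89% of distal pol II peaks. Without those peaks, JunB alone was at 17.3% of single and 5.36% of joint distal Med1 peaks, a difference of −11.9 points (−16.7 to −7.92), Jun was at 29.5% and 64.9%, and any Jun-family protein was at 47.4% and 71.7%.

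**Figure D3:**
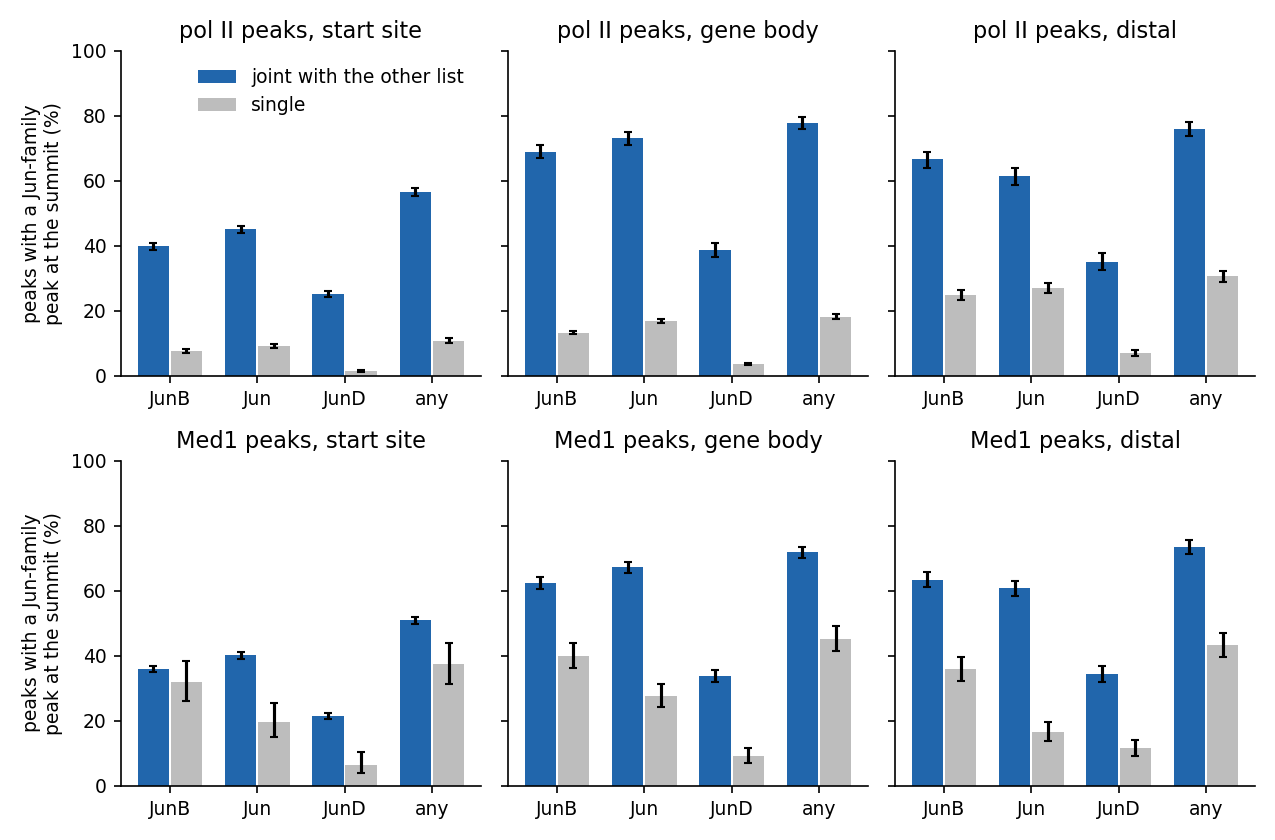
Share of pol II peaks (top) and Med1 peaks (bottom) with JunB, Jun, JunD or any of them within 250 bp of the summit (%), for peaks joint with the other list (blue) and single peaks (grey), by place in A549. Error bars are Wilson 95% intervals. At start sites 56.6% of joint and 10.8% of single pol II peaks had a Jun-family peak.

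In B2B the start-site pol II peaks had the other order. There 14.0% of joint and 22.7% of single pol II peaks had a Jun-family peak, a difference of −8.68 points (−10.7 to −6.77), opposite in sign to A549, and the difference between the lines was not tested. In B2B gene bodies and at distal sites joint pol II peaks were higher, as in A549, by 30.2 and 18.9 points. For Med1 peaks the B2B difference was 7.97 points at start sites (6.81 to 9.10), the same sign as in A549, and 46.1 points at distal sites. B2B peaks were not compared within quintiles of fold enrichment, and the B2B pol II list has the high start-site background given above.

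The AP-1 motif was about as frequent at joint as at single start-site pol II peaks. TGANTCA lay within 50 bp of the summit at 2.95% of joint and 3.43% of single start-site pol II peaks, near the 2.97% and 2.52% in windows 2 kb to either side. In gene bodies it was at 15.0% of joint and 5.86% of single pol II peaks, and at distal sites at 11.5% and 8.80%, with flanking windows at 2.98% to 3.64%. Of joint start-site pol II peaks with a Jun-family peak, 4.95% held the motif, against 17.0% of single ones with a Jun-family peak. In gene bodies these shares were 18.7% and 21.1%, and at distal sites 14.4% and 23.2%. Among pol II peaks with the Jun family the motif was thus less frequent at joint ones in all 3 places. For Med1 peaks with the Jun family the shares were 5.98% and 13.4% at start sites. In gene bodies they were 26.2% and 19.0%, and at distal sites 20.6% and 10.3%, so that joint ones were higher there. No intervals were computed for differences in the motif among peaks with the Jun family. Joint distal Med1 peaks held it at 15.8% and single ones at 4.90%, beside 3.11% and 3.19% in their flanks. Without chromosome ends and gaps these shares were 17.4% and 8.97%. A match of letters is a description and shows no binding.

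Within joint sites the summits were close, and at genes the Med1 summits lay slightly upstream of the pol II summits in the median. The median distance between the Med1 and the nearest overlapping pol II summit was 111 bp at start sites, 102.5 bp in gene bodies and 86.5 bp at distal sites. At 6446 protein-coding genes with both proteins within 3 kb of the same start, the pol II summit lay at a median of 13 bp downstream of the start (quartiles −112 and 46). The Med1 summit lay upstream, at a median of −41 bp (−115 and 31). Med1 summits were upstream of the start at 66.7% of genes (65.5 to 67.8) and pol II summits at 42.7% (41.5 to 43.9). At the 3497 genes with no start on the opposite strand within 1 kb the medians were 18 bp for pol II and −34 bp for Med1, so the offset was also present away from divergent promoters. Within the same gene the offset was small and varied. The median of Med1 minus pol II was −21 bp (quartiles −106 and 76), and Med1 was upstream of pol II at 55.8% of genes (54.6 to 57.0). The summits of the same gene were within 100 bp of each other at 53.6% of genes.

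**Figure D4:**
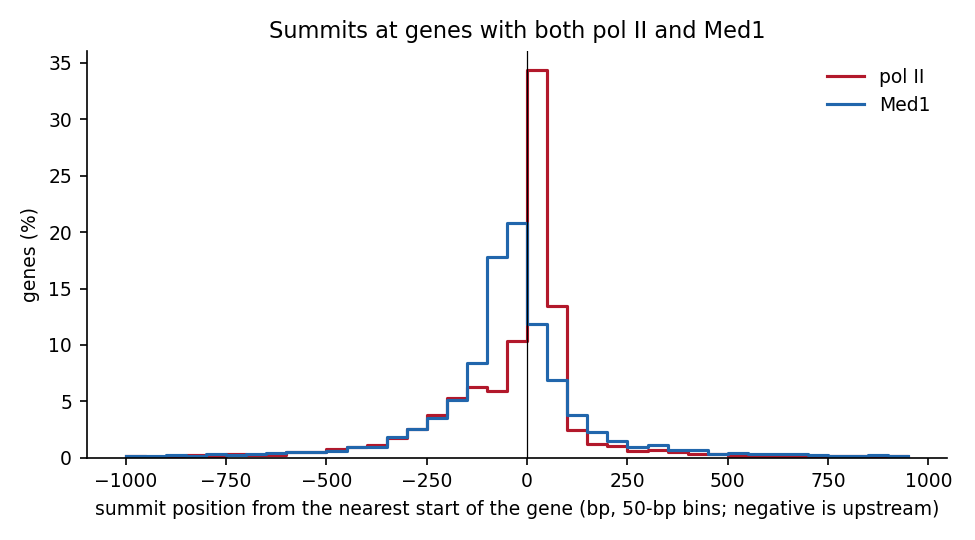
Position of the highest pol II (red) and Med1 (blue) summits from the nearest annotated start of 6446 protein-coding genes with both, in bp along the direction of transcription in 50-bp bins, as a share of genes (%). Pol II summits peaked just downstream of the start (median 13 bp) and Med1 summits just upstream (median −41 bp).

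Of 12573 protein-coding genes on chromosomes 1 to 12, most had both proteins or neither within 1 kb of a start, and almost none had Med1 alone. Both were at 6627 genes (52.7%), pol II without Med1 at 1785 (14.2%), Med1 without pol II at 9 (0.0716%) and neither at 4152 (33.0%). Genes with pol II but no Med1 thus made up 21.2% of the 8412 genes with pol II (20.4 to 22.1). Med1 was missing within 10 kb as well at 1435 of these 1785 genes (80.4%). Among 11907 long non-coding RNA genes, 2330 had both, 912 pol II alone and 16 Med1 alone, and 28.1% of those with pol II lacked Med1 (26.6 to 29.7).

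Genes with pol II alone had the marks of promoters at lower levels. H3K4me3 lay at 93.4% of them and at 99.8% of genes with both, and H3K27ac at 93.1% and 99.6%. The median fold enrichments were 14.1 against 55.3 for pol II, 29.5 against 38.1 for H3K4me3 and 33.7 against 72.9 for H3K27ac. A Jun-family peak was near 19.6% of genes with pol II alone (17.8 to 21.5) and near 65.6% of genes with both (64.4 to 66.7). By quintiles of gene pol II fold enrichment, the share of genes with Med1 was 26.0%, 76.0%, 93.8%, 98.4% and 99.7%. In the second quintile, where both kinds were frequent, 46.8% of 1279 genes with both and 23.3% of 403 genes with pol II alone had a Jun-family peak.

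Among the genes with both, Med1 strength went with pol II strength and with the Jun family. Across these 6627 genes Spearman's rho between the pol II and Med1 fold enrichments was 0.68, a description over genes that share libraries and promoters. From the lowest to the highest quintile by Med1, the median pol II fold enrichment went from 31.4 to 83.5, the share with a Jun-family peak from 39.9% to 90.6%, and the share with all 3 proteins from 4.30% to 52.9%. Pol II also covered more of the gene body, with a median of 0.381% in the lowest quintile and 2.29% in the highest, over genes with a body of at least 4 kb.

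The same genes were looked up in B2B. Of genes with both in A549, 92.9% had Med1 in B2B (92.3 to 93.5) and 82.5% had pol II. Of genes with pol II alone in A549, 56.4% had Med1 in B2B (54.1 to 58.7) and 37.9% had pol II (35.6 to 40.1). Over all protein-coding genes these shares were 59.1% and 50.2%, so the Med1 share of this group was close to that of all genes. Among the 676 of them with pol II in B2B, 83.0% had Med1 there (80.0 to 85.6), below the 95.3% of all genes with pol II in B2B and the 97.9% of those with both in A549. Med1 without pol II was at 19.1% of B2B genes with Med1, compared with 0.136% in A549. The B2B pol II list is shorter than that of A549 and has the high start-site background given above.

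The genes with the strongest pol II and no Med1 fell into 2 kinds. At DIPK1B, the top value at 124.8, the pol II summit lay 32 bp from a start of the neighbouring long non-coding gene SNHG7 and 7261 bp from any start of DIPK1B itself. GARIN4, at 76.3, took its value from a peak of 18 kb whose summit was 17 bp from a start of ATF3, a stress-response transcription factor gene, and 15696 bp from a start of GARIN4, which had neither H3K27ac nor H3K4me3. The value of ENSG00000285938 (89.3) likewise came from a summit 1705 bp away, which lay 12 bp from a start of ENSG00000289331. That of VCAN, a matrix proteoglycan gene, came from a summit 2507 bp away (68.7), but the start nearest to that summit was one of VCAN itself.

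The others had pol II at their own promoter, with summits 7 to 144 bp from a start. They were KCNAB2, a potassium channel subunit gene whose peak is shared with the divergent NPHP4 (78.5), UQCC2 (69.7), PTPN6, a phosphatase gene (66.4), NANOS1, a gene for an RNA-binding protein (64.2), OTUD3 (64.1) and STPG2 (63.7). OTUD3 had the highest H3K27ac among them, at 102.3, and H3K4me3 at 42.8, and UQCC2 had 89.7 and 33.1. No Jun-family peak was near any of these 6. PTPN6 had a Med1 peak within 10 kb and the other 5 had none. Pol II extended little into the gene at the 5 with a body of at least 4 kb, covering 0% at OTUD3 to 3.96% at UQCC2.

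Among genes with both, the 10 highest by the summed ranks of pol II and Med1 all had the whole Jun family. EEF1A1 led with a pol II fold enrichment of 122.1 and Med1 at 51.0, followed by HES1, a Notch target and repressor gene, at 118.0 and 51.9. RPS20, a ribosomal protein gene, had 120.3 and 48.7, SECISBP2, a selenocysteine incorporation factor gene, 118.8 and 47.4, and ARRDC3 117.2 and 45.1. OSGIN2 had 117.6 and 40.7, GABARAPL1, an autophagy gene, 116.1 and 41.6, and ENSG00000285976, which shares its peak with the phosphatase gene PTP4A1, 114.2 and 54.1. TXNRD1, the thioredoxin reductase and an NRF2 target, had the highest Med1 value of the 10, at 91.2 beside pol II at 114.7. Its pol II peak, shared with EID3, lay at a start inside the gene rather than at its outermost one. ITGB1 closed the list at 114.0 and 50.9. All 10 had JunB, Jun and JunD at a start, with Jun from 7.39 at OSGIN2 to 48.4 at ITGB1, whereas the 6 promoters above had none. Over all genes with both, 21.97% had all 3 proteins, or 52.9% in the highest Med1 quintile, and 19.6% of all genes with pol II alone had any, so that none among 6 is near that share. Pol II covered 4.53% of the body at SECISBP2 and 90.1% at GABARAPL1, the extremes among the 9 genes with a body long enough.

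Only 9 genes had Med1 and no pol II, all at modest Med1 values. AKR1C4, an aldo-keto reductase gene next to the NRF2 targets of the same family, had 13.5, with Jun at 12.3 and JunB at 5.24. SLC30A10, a manganese transporter gene, had 7.30, with Jun at 43.5, JunB at 14.0 and JunD at 6.71, and VAMP5 had 4.07, with Jun at 17.5 and JunB at 10.2. The other 6 had no Jun-family peak at a start. They were NPAS4 (7.06), ADARB2 (6.43), ARHGEF5 (6.26), USP17L24 (5.29), FIGLA (4.59) and STYK1 (4.03). The summit lay within 250 bp of an own start at STYK1 alone (15 bp), and at the other 8 between 395 and 1042 bp away. The USP17L family consists of near-identical copies, so that reads there cannot be assigned to 1 copy with certainty.

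Pol II and Med1 were both present at most members of the gene groups tested, and the groups are given by counts beside 52.7% of all protein-coding genes with both and 14.2% with pol II alone. Cytosolic ribosomal protein genes had both at 48 of 48, with a median pol II fold enrichment of 79.3 and a Med1 median of 13.5. RPS20 (120.3), RPL12 (116.1) and RPL30 (104.4) had the highest pol II values. Over those with a body of at least 4 kb, pol II covered a median of 65.5% of the body. The median was 0.0842% over all protein-coding genes, which include those with neither protein. It was 0.865% over genes with both, and 1.80% over genes with both in the highest pol II quintile. Gene length was not adjusted for. Mitochondrial ribosomal protein genes had both at 51 of 55, led by MRPS15 (103.3), with pol II alone at MRPL41 (35.4), MRPS22 (33.9), MRPS18A (31.6) and MRPL36 (27.7). Their median coverage of the body was 0.0100%, and their median pol II value of 54.7 was also below the 79.3 of the cytosolic ones.

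The oxidative phosphorylation genes, which encode the respiratory chain and ATP synthase, had pol II alone at 8 of 49, or 16.3%, close to the 14.2% of all genes. The highest of these were NDUFA9 (33.7), ATP5F1C (29.2) and NDUFS6 (27.7), while NDUFS5 (91.6), NDUFB2 (88.0) and NDUFB9 (85.0) led the 39 with both. Among 16 measured Mediator subunit genes, 13 had both, led by CDK19 (91.6), CCNC (80.3) and MED28 (72.3), and MED10 (24.0), MED27 (22.9) and MED8 (10.5) had pol II alone. Of 7 pol II subunit genes, POLR2G had pol II alone (13.1). The other 6 had both, from POLR2L at 41.5 for pol II and 5.46 for Med1 and POLR2D at 41.5 and 5.12, through POLR2K (44.6 and 6.71), POLR2H (51.1 and 10.4) and POLR2B (57.8 and 5.37), to POLR2J at 71.0 and 21.96.

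The NRF2 and immediate-early lists had the highest Med1 medians of the lists. NRF2 targets, the antioxidant genes, had both at 23 of 24, with a Med1 median of 29.5 against 9.25 over all genes with Med1. TXNRD1 (pol II 114.7), PGD (113.9) and SLC7A11, the cystine transporter gene (110.5), led the group, and GSTM3 had pol II alone at 19.9. Immediate-early and growth-factor response genes had both at 45 of 51, with a Med1 median of 21.8. CCN1 (121.4), DUSP5 (120.6) and NR4A2 (118.0) led, EGR2 (18.2), EGR3 (12.9) and CXCL1 (9.42) were the strongest of the 5 with pol II alone, and IL6 had neither. A Jun-family peak was near 22 of the 24 NRF2 targets (91.7%) and 44 of the 51 immediate-early genes (86.3%), compared with 39.0% of all protein-coding genes. Among genes with both proteins the share was 65.6%. In the highest Med1 quintile, which holds the Med1 medians of these lists, it was 90.6%, so the shares of these lists were near that of genes with similar Med1. The medians of body coverage were 40.1% and 59.2%.

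Adhesion and matrix genes had a Jun-family peak at 28 of 30 and both proteins at 26, led by ITGB1 (114.0), ITGAV (110.5) and S100A11 (109.3). FN1, fibronectin (40.3), ITGA5 (21.5) and LAMB3 (7.16) had pol II alone although Jun was near each, at 17.6, 12.3 and 8.30, and ITGB6 had neither. Chaperone genes had both at 19 of 20, led by HSPA5 (115.4), HSP90AB1 (115.0) and HSP90B1 (106.9), with CCT5 as the exception (18.4). Replication-dependent histone genes had both at 55 of 69 and neither at 13, including H2AC1, H2BC1 and H1-1, and H2AC16 had pol II alone (16.4). The top histone value of 115.4 was a single peak shared by H2AC17, H2BC17 and H3C12. Histone genes and HSPA1A are nearly identical to neighbouring copies, so their values may be split among copies.

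Genes of RNA polymerase III, which makes small RNAs, were a further group with peaks of pol II. All 10 had a pol II peak within 1 kb and 6 had Med1. VTRNA1-1 had pol II at 77.8 and Med1 at 15.2, VTRNA1-2 46.4 and 15.6, RN7SK 39.5 and 6.88, VTRNA1-3 36.002 and 10.4, RMRP 30.6 and 4.94, and RNU6ATAC 10.8 and 4.93. The vault RNA genes VTRNA1-1 to VTRNA1-3 also had Jun, at 47.6, 40.6 and 37.9. RNY1 (13.5), RNY4 (8.36), VTRNA2-1 (7.42) and RNY3 (5.84) had pol II alone.

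**Figure D5:**
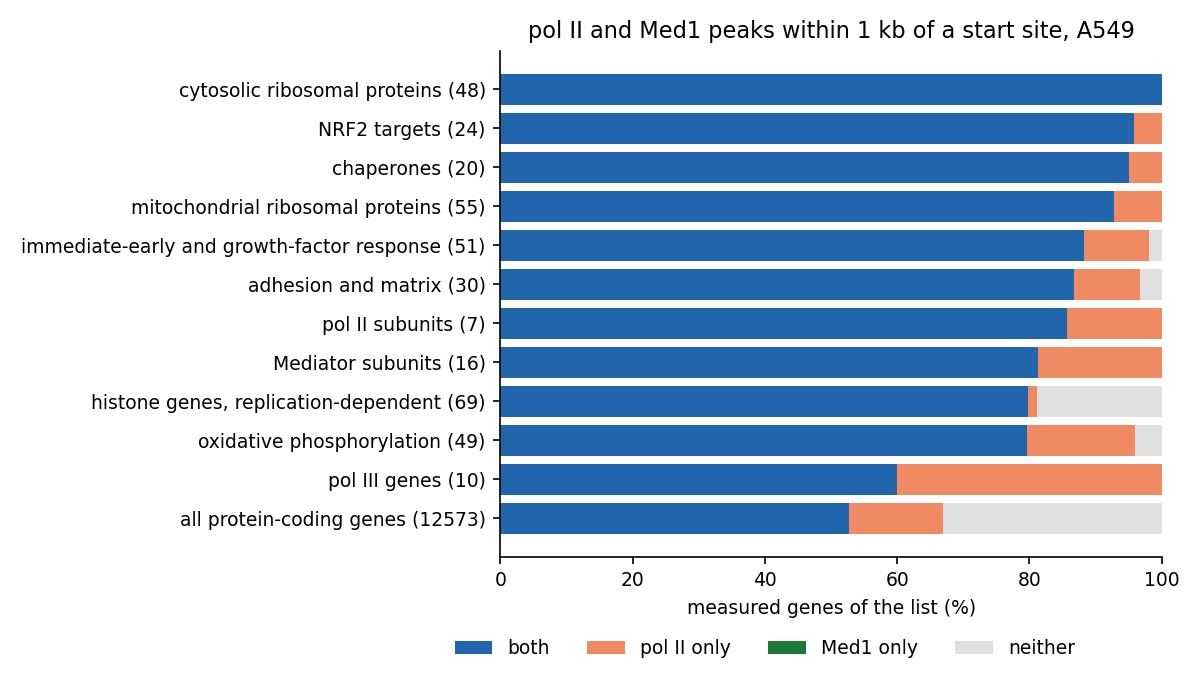
Share of measured genes (%) of each list with both pol II and Med1, pol II alone, Med1 alone or neither within 1 kb of a start in A549, with the number of measured genes in brackets. All 48 cytosolic ribosomal protein genes had both, compared with 52.7% of all protein-coding genes.

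The promoters of genes with both and with pol II alone were close in base composition. Over 250 bases before and 50 after the canonical start of each gene, the median GC content was 66.3% and 65.7%, against 52.0% for genes with neither, and the medians of CpG dinucleotides were 28, 25 and 5. Motifs were searched as exact letters on both strands. The ETS-type core CCGGAAG was in 19.9% of promoters with both and 12.997% of those with pol II alone, a difference of 6.88 points (4.98 to 8.65), against 13.1% of all coding promoters. GGGCGG was in 75.3% and 69.6%, 5.62 points apart (3.28 to 8.02), against 59.6% of all. The cAMP response element TGACGTCA, which AP-1 can also bind, was in 3.92% and 1.51%, 2.41 points apart (1.60 to 3.09), and GCATGCGC in 5.93% and 4.20%. TGANTCA was slightly less frequent with both, at 3.65% against 5.15% (difference −1.50 points, −2.71 to −0.454). For CCAAT (35.4% and 35.7%) and TATAAA (5.58% and 6.55%) the intervals of the difference held 0.

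Among distal sites with H3K27ac the strongest Med1 values lay near chromosome ends or assembly gaps. The first, on chromosome 10, had a Med1 fold enrichment of 104.6, pol II at 61.5 and JunB at 22.9. The 200 bp around its summit were the unit aaccct repeated throughout, so reads there cannot be assigned to 1 place with certainty. The next 3, on chromosomes 3, 4 and 1, had Med1 at 82.3, 69.6 and 63.1 and also lay within 1 Mb of a chromosome end or assembly gap. Of the sites away from these, the one near BHLHE40 had Med1 at 62.9, pol II at 71.4, Jun at 31.96, JunB at 19.2 and H3K27ac at 96.7. The tandem repeat near NID1 had Med1 at 60.3 with pol II at 16.1 and the highest JunB of the set, at 40.9. The site 9.84 kb from MAFK, a small Maf transcription factor gene, had Jun at 81.1 beside Med1 at 46.5 and pol II at 55.7. Those near ELOVL5, a fatty acid elongase gene, and FTH1, the ferritin heavy chain gene and an NRF2 target, had Med1 at 42.6 and 37.7 and pol II at 89.6 and 28.1.

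Single distal Med1 sites with H3K27ac were weaker. The 5 highest were near MEGF9 (15.7), ABCC2 (13.3), NUPR2 (12.5), PLIN2 (11.8) and DUSP5 (11.6). They did not share a Jun-family pattern. ABCC2, an export pump gene, had Jun at 66.1 and JunB at 38.3, PLIN2 had Jun at 31.9 and JunB at 10.7, DUSP5 had Jun at 6.01, NUPR2 had JunB at 4.59, and MEGF9 had none. The 5 single distal pol II sites all carried H3K4me3, from 4.32 near CTTNBP2NL to 42.0 near GPR148. Their pol II values were 52.4 near HDAC11, 51.9 near GPR148, 47.9 near ZNG1F, 46.5 near CRYBA2 and 46.0 near CTTNBP2NL. Jun was at 6.14 near HDAC11 and 22.4 near CTTNBP2NL and JunB at 9.51 near CTTNBP2NL and 5.20 near CRYBA2, and no Jun-family peak was found at the other pair. None of the 5 single distal Med1 sites carried H3K4me3. Over all single distal peaks, H3K4me3 lay within 250 bp of the summit at 28.5% for pol II and 10.3% for Med1. None among 5 is thus near the Med1 share, and the 5 pol II sites were picked as the strongest with H3K27ac.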

How the data were processed

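ChIP-seq reads of A549 and B2B cells were aligned by the authors to hg38 with Bowtie2 2.4.4, duplicates were removed, the 2 replicates of a target were merged, and peaks were called with MACS2 2.2.7.1 (tools also include SAMtools 1.13). Input libraries were sequenced for both lines, with 2 replicates each. Whether the caller used them as control, and its options, are not given in the sources used here. The deposited peak lists give a fold enrichment at the summit, a ratio of pileup to local background, as the authors' caller wrote it. They also give the deposited −log10 p of the summit, a deposited score of 10 times the −log10 q from the authors' caller, and the summit position.

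Peaks on chromosomes 1 to 12 were kept unless the summit lay in a 1-Mb bin without a GENCODE 44 transcript start. Joint peaks overlapped by at least 1 bp. Jun-family and histone peaks were counted within 250 bp of the summit, TGANTCA within 50 bp with windows 2 kb to each side as background, and gene values within 1 kb of any start. A gene body was scored from 4 kb. Shares carry Wilson and differences Newcombe 95% intervals, which cover counting error only. With 1 pooled list per target no replicate test exists and no p-value was computed. Pileups in whole reads and local backgrounds were solved from the fold enrichment and p. Backgrounds were not solved for peaks with the highest −log10 p. Scripts were tested on simulated lists, with 5 of 5 checks passed, and used Python 3.11.15, NumPy 2.4.6, pandas 2.3.3, SciPy 1.17.1, Matplotlib 3.10.9 and bedtools 2.31.1.

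The peaks, gene lists and tests were chosen with earlier results of these data known. Named genes were the 10 with the strongest pol II alone, the 10 with the lowest summed rank with both, all with Med1 alone, the 5 strongest distal sites of each kind with H3K27ac, and up to 3 of each class per list. ITGB1, UQCC2, OTUD3, NID1, BHLHE40 and HDAC11 were added to the printed sequences after their values were seen. The RefSeq promoter of DIPK1B was not printed, as it does not lie at its peak. Promoter motifs were read from hg38 at the canonical start of all 12573 protein-coding genes. The B2B lists of CTCF, Rad21, H3K27ac and H3K4me3 were not used here beyond their peak number.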

Additional observations from a re-analysis of the deposited data

Results flagged for a closer look

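The bins without a start site held 3436 A549 Med1 peaks and 594 A549 pol II peaks, which no comparison above used. These Med1 peaks lay in 26 bins, and 569 of them (16.6%) overlapped a pol II peak. JunB was near 54.1% of them, JunD near 17.2% and Jun near 2.01%, while H3K27ac and H3K4me3 were near none. Their median fold enrichment was 7.16 and their median width 261 bp. The B2B Med1 list held 1126 peaks in such bins.

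The Jun-family share at start-site pol II peaks moved in opposite directions in the lines. It was 45.8 points higher at joint than at single peaks in A549 and differed by −8.68 points in B2B. At start-site Med1 peaks the sign was the same in both lines, with 13.4 points in A549 and 7.97 points in B2B. The B2B values were not split by fold enrichment, and the B2B pol II list has a high start-site background. The difference between the lines was not tested.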

How the results depend on the processing

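Of 68 alternatives over 9 results, 29 moved a value by less than its counting interval, 39 moved it further and 0 reversed a direction. Shares have no sign, so among the 9 results only the Jun-family differences could have reversed. Differences between A549 and B2B were not among the 9. Those of gene-body and distal pol II peaks with Med1 changed sign with the cut pol II list, as given above. Values follow in the order start sites, gene bodies and distal sites, and the cause of a move was not tested. With the pol II list cut to the length of the Med1 list, pol II peaks with Med1 came to 73.5%, 47.7% and 58.4%, Med1 peaks with pol II to 95.7%, 66.2% and 54.9%, the Jun-family difference to 40.5 points (start-site pol II) and 19.6 points (distal Med1), and pol II genes lacking Med1 to 16.8%. Joining peaks within 1 kb gave 64.6%, 22.5% and 36.9% for pol II and 98.7%, 81.9% and 74.1% for Med1. A start distance of 3 kb gave 40.8%, 16.1% and 32.8% for pol II and 95.99% for start-site Med1. Protein-coding starts alone gave 53.0% and 17.0% for pol II at start sites and in gene bodies, and 98.8%, 82.6% and 71.99% for Med1. A −log10 q of at least 5 gave 51.4% and 15.6% for pol II at start sites and in gene bodies and 24.2% for genes. Requiring a summit inside the other peak gave 96.9%, 78.6% and 67.9% for Med1. Keeping bins without a start gave 39.3% for distal pol II and 37.6% for distal Med1, and left the start-site and gene-body shares unchanged. Searching Med1 within 10 kb gave 17.1% for genes. Chosen after seeing the data, leaving out chromosome ends and gaps gave 98.2%, 83.2% and 80.9% for Med1, 28.6% for distal pol II and a distal Med1 Jun-family difference of 24.2 points, and counting Jun-family peaks anywhere in the peak gave 50.1 points at start-site pol II. The overlap of distal Med1 with pol II therefore ranged most with the bins kept and the length of the pol II list. No paired analysis was possible because each list pools its replicates, and leaving out a replicate could not be run for the same reason. Weak peaks set the limit, since the lowest decile of summit pileups was 13 reads for pol II and 12 for Med1, so a missing overlap means only that no peak was called.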
